A study of Mus musculus with 2 samples.

Results

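Gene desert intervals were the accessible chromatin intervals on the autosomes that overlapped no annotated gene of any kind and lay more than 200 kb from the nearest point at which transcription of any protein-coding gene starts. Of the 119502 consensus intervals in the table, 116817 lay on the autosomes and 8140 met this rule, 6.97% of the autosomal intervals. The rule used positions and no counts. The nearest member lay 200.003 kb from a start site and the nearest intergenic interval outside the rule 199.958 kb, and the members had a median distance of 359 kb and a maximum of 2680 kb.

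The assay was ATAC-seq, which marks open chromatin through the insertion of sequencing adapters by Tn5 transposase, and the series held 1 group of 2 replicate libraries of live cells. A mouse ES cell line was used with the red fluorescent protein mKate2 joined to Olig2 by a 2A peptide (Olig2-2A-mKate2), and cells were sorted for mKate2 at day 5 of differentiation into ventral spinal cord progenitors. Cultures received bFGF and LGK, then bFGF, CHIR99021, SB-431542 and DMH1, and from day 3 100 nM SAG, an agonist of Sonic hedgehog signalling, with 100 nM retinoic acid. Each transposition used 50000 cells. OLIG2 marks the progenitors of motor neurons (pMN), but the reporter protein can persist after the gene is switched off, so the sort can also hold newly born neurons. Per the study, it also holds some cells positive for both OLIG2 and NKX2.2, a marker of the most ventral progenitors. With 1 group, no condition was compared, and because nothing in the labels says that the replicates came from separate cultures, the spread between them may be technical.

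Gene deserts are long stretches of the genome without protein-coding genes. Many of them flank genes for developmental transcription factors or for neuronal adhesion and guidance proteins, and some are known to hold enhancers, short elements bound by transcription factors that act on a promoter over a long distance through looping of the chromatin. Enhancers active in a cell are usually open to transposase, whereas most desert sequence is closed, rich in A and T, and poor in CpG dinucleotides. An open interval in a desert is therefore a candidate regulatory element, but its target gene cannot be read from accessibility alone.

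The libraries held 31876165 and 31672240 counts in intervals, and the median member held 43 and 45 fragments in replicates 1 and 2, so differences between single members rest on few fragments in most cases. The start sites of the genes that mark the sorted cells were open, with 963 and 930 normalised counts per kb at Olig2, 880 and 843 at Sox2, 1471 and 1433 at Nkx6-1 and 573 and 580 at Pax6 in replicates 1 and 2. No interval covered a start site of Pou5f1 or Nanog (pluripotent cells), Ptprc or Hbb-bs (blood) or Alb (liver). Start sites of other genes known from those or other tissues were open, with 585 and 544 at Klf4, 1517 and 1430 at Tbx3, 1078 and 1084 at Gata3 and 602 and 543 at Runx1.

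Of the 10 most accessible desert intervals, 5 lay in deserts bordered by a transcription factor gene of the neural tube, namely Sall1, Zeb2, Sox2, Pou3f3 or Sox9, as did 12.4% of all members. Sequences are shown first, for the members of highest accessibility in the 20 deserts with the most intervals that also ranked among the 10 most accessible of all members, and for the deserts with the largest numbers of members. None of the 26 intervals searched for this purpose had another match in the autosomes of at least 100 bp at 90% identity. Each sequence is the central 300 bp on the plus strand of GRCm38 (mm10), and capitals mark the motifs ACAATG (SOX factors), CAGATG (a neural basic helix-loop-helix E-box), ATGCAAAT (POU octamer), TAATTA (homeodomain), GACCACCCA (GLI), TGTTTAC (forkhead) and TTGGCA (NFI half-site) on either strand. The windows were chr8:89823493-89823792 between Sall1 and Tox3, chr2:48538783-48539082 between Zeb2 and Acvr2a, chr3:35088574-35088873 between Sox2 and Atp11b, chr11:112501877-112502176 between Kcnj2 and Sox9, chr8:7097644-7097943 between Slc10a2 and Efnb2, and chr8:98309480-98309779 between Got2 and Cdh8, all of them in intergenic sequence.
Sall1-Tox3: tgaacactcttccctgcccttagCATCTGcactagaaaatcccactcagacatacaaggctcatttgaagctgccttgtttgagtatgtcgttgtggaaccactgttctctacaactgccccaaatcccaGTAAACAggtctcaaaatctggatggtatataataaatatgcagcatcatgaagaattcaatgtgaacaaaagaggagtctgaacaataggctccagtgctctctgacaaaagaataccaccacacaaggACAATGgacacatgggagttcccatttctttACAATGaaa
Zeb2-Acvr2a: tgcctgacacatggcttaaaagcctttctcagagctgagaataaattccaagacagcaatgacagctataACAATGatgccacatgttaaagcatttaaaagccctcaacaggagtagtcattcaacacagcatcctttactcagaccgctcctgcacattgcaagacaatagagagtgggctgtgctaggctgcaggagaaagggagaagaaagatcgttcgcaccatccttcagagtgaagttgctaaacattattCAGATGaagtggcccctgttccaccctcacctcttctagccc
Sox2-Atp11b: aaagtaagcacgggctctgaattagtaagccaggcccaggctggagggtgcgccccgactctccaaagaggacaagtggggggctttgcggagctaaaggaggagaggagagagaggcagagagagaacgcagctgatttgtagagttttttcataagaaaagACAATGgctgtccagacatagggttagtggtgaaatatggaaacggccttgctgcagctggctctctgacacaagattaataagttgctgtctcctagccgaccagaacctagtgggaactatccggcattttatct
Kcnj2-Sox9: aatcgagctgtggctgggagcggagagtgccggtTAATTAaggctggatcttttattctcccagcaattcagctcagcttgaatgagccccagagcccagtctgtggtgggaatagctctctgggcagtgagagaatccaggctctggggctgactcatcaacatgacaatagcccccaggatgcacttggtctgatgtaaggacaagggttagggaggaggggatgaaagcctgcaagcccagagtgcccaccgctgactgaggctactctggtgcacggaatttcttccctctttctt
Slc10a2-Efnb2: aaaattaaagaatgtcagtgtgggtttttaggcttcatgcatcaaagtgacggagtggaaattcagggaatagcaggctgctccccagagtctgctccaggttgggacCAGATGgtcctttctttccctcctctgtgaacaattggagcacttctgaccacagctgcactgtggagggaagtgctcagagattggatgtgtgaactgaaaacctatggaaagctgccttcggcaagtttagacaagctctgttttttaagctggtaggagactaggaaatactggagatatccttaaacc
Got2-Cdh8: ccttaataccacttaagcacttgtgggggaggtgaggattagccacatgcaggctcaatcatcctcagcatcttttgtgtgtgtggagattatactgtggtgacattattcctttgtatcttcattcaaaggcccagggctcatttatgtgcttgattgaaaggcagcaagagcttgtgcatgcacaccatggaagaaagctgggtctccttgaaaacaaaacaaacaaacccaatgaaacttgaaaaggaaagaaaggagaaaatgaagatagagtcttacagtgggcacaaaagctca

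The Sall1-Tox3 window held 4 of these motifs, ACAATG at positions 261 and 292 counted from the left end, CAGATG read on the minus strand at position 24 and TGTTTAC on the minus strand at position 131. The Zeb2-Acvr2a window held ACAATG at position 71 and CAGATG at position 259. The Sox2-Atp11b window held 1 ACAATG at position 164, the Kcnj2-Sox9 window 1 TAATTA at position 35 and the Slc10a2-Efnb2 window 1 CAGATG at position 109. The Got2-Cdh8 window held 0 of them. A match describes the letters of the window and is not a bound site.

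The member of highest accessibility lay at chr8:89823052-89824232, 524 kb from Tox3, an HMG-box gene, and 779 kb from the 5′ end of Sall1, a zinc finger transcription factor gene of the early neural plate. It held 3318 fragments in replicate 1 and 2936 in replicate 2, which is 2811 and 2485 normalised counts per kb of interval (2648 ± 230, SD, n = 2). The member at chr2:48538512-48539353 lay between Zeb2, a zinc finger homeobox gene of neural crest and neuronal differentiation, and Acvr2a, an activin receptor gene, 3421 kb from the 5′ end of Zeb2 but 275 kb from Acvr2a, and had 2408 and 2456 normalised counts per kb. The interval at chr3:35088236-35089211, 438 kb from Sox2, which maintains neural progenitors, had 2440 and 2364. Its neighbour in rank, between Tmem182 and the POU factor gene Pou3f3 at chr1:41390053-41390870, had 2326 and 2477. It lay 1305 kb from the 5′ end of Pou3f3 and 584 kb from Tmem182. The member at chr11:112501789-112502264 lay 280 kb from Sox9, a SOX factor gene of progenitors and glia, and had 2257 and 2446.

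These levels were above the median of promoters in the same libraries, where the median interval over a protein-coding start site had 768 and 744 normalised counts per kb. Among all members, 215 (2.64%) exceeded that start-site median, compared with 3.44% of the other intergenic intervals. Start-site intervals were longer, and without scaling to length their median was 990 and 958 fragments in replicates 1 and 2. By that measure the lowest of the members described above, beside Sox9, held 1074 and 1165. The 10 highest members were completed by intervals between Smad2 and Skor2 (2564 ± 15.1), Myc and Gsdmc (2482 ± 38.0), Pdzrn3 and Cntn3 (2314 ± 0.963), Arglu1 and Fam155a (2203 ± 71.4) and Marcks and Rfpl4b (2184 ± 23.9, all in normalised counts per kb, SD, n = 2). The order within the 10 was not resolved where neighbours differed by less than these SDs.

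Most members were far weaker. Their median accessibility was 113 normalised counts per kb in replicate 1 and 119 in replicate 2 (116 ± 3.95, SD, n = 2), with the middle 50% between 69.6 and 192, and 119 members (1.46%) exceeded 1000. A mean normalised count over 100, called strong here, was reached by 2118 members, or 26.0% (95% Wilson interval 25.1 to 27.0). This range treats members as independent draws, which neighbouring members are not, and it is no spread between libraries. By the same cut, 32.4% of the other intergenic and 38.7% of all autosomal intervals were strong. The cut is not scaled to length, so longer intervals reach it more easily. The members were short, with a median length of 410 bp, against 464 bp for the other intergenic intervals and 1188 bp for intervals over a start site. Together they held 2.83% and 2.95% of all counts of replicates 1 and 2.

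The next comparison was of the deserts with the rest of the intergenic genome. Sequence that met the rule covered 457.9 Mb, 19.1% of the autosomes, and held 17.8 intervals per Mb, whereas the intergenic sequence nearer to start sites held 42.1 per Mb, a ratio of 0.423. For strong intervals the values were 4.63 and 13.6 per Mb. The deserts held fewer intervals per Mb than the other intergenic sequence on 19 of 19 autosomes. The interval set was common to both libraries, so these values have no replicate spread.

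Accessibility per kb was only slightly lower in the deserts. The other intergenic intervals had medians of 129 and 131 normalised counts per kb, so the desert to intergenic ratio was 0.877 in replicate 1 and 0.909 in replicate 2 (0.893 ± 0.0222, SD, n = 2). The ratio was below 1 in 2 of 2 libraries, and an exact two-sided sign-flip permutation test over the libraries gave p = 0.5, the smallest that 2 libraries allow. On single autosomes it was below 1 on 17 of 19, with chromosomes 8 (1.03) and 18 (1.04) as the exceptions. The difference lay mainly in short intervals, with a ratio of 0.873 ± 0.0113 up to 300 bp and 0.881 ± 0.0245 from 300 to 500 bp, but 0.973 ± 0.0313 from 500 to 1000 bp and 0.976 ± 0.0350 above that (SD, n = 2), where replicate 2 had ratios of 0.996 and 1.00. Within classes of equal G+C content the ratio was 0.956 and 1.01 in replicates 1 and 2 in intervals of 40 to 45% G+C and was 0.922 in both libraries at 50% or more.

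From 5 kb outward, intervals were sparser in each successive class of distance. From 200 to 300 kb there were 2908 members, 26.0 per Mb, from 300 to 500 kb 2821 members, 20.5 per Mb, from 500 to 1000 kb 1863 members, 13.1 per Mb, and beyond 1000 kb 548 members, 8.29 per Mb. Intergenic sequence 5 to 20 kb from a start site held 53.9 per Mb and that at 100 to 200 kb 32.3, but that within 5 kb held 35.3. The median accessibility changed less, from 120 ± 3.60 normalised counts per kb at 200 to 300 kb to 103 ± 6.42 beyond 1000 kb (SD, n = 2), and the share of strong members was 29.1% in the first class and 19.3% in the last. Median length also fell between these classes, from 448 to 351.5 bp, and its part in the share of strong members was not tested. The 5 farthest members all lay between the protocadherin genes Pcdh20 and Pcdh9 on chromosome 14, at 2503 to 2680 kb, and had at most 88.8 normalised counts per kb, with 1 of them at 2 and 1 fragments.

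**Figure D1:**
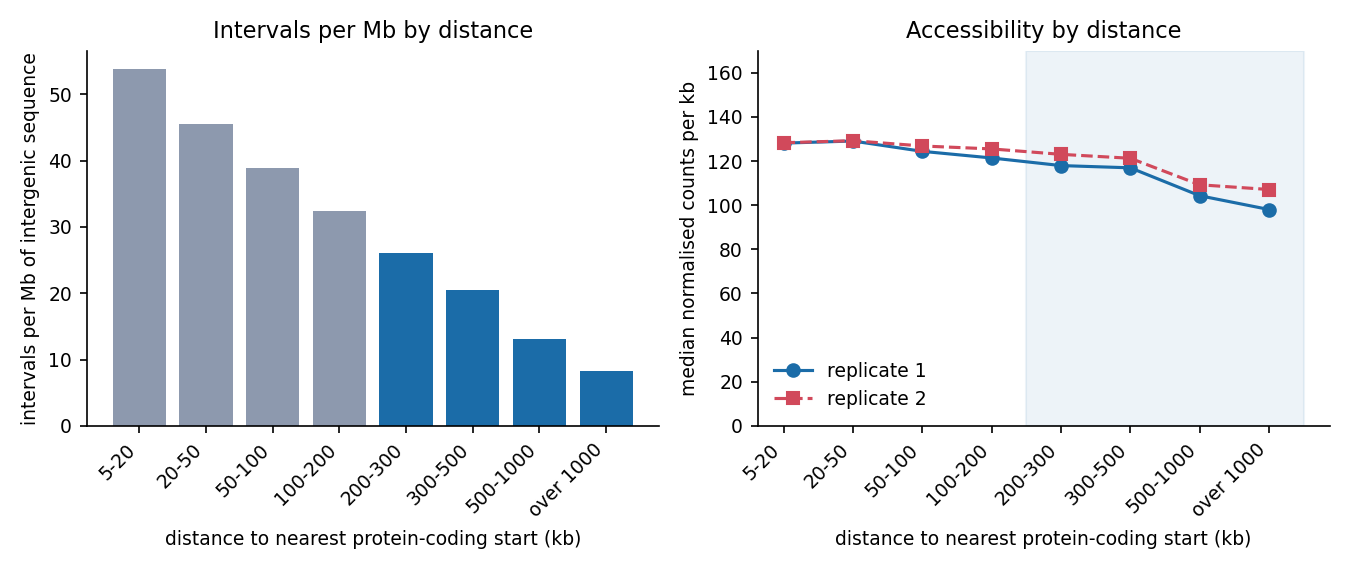
Intergenic autosomal intervals at least 5 kb away, by distance to the nearest protein-coding start site (kb): left, intervals per Mb of intergenic sequence, with desert classes in blue and nearer classes in grey; right, the median normalised counts per kb in each replicate, with the desert classes shaded. The number per Mb is 53.9 at 5 to 20 kb and 8.29 beyond 1000 kb, while the median accessibility, as the mean of both replicates, is 128 and 103.

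Members were grouped by the protein-coding genes on either side, and each pair of flanking genes is called a desert. Of 826 deserts with eligible sequence, 733 held a member, with a median of 8, and the 302 with at least 10 held 77.2% of all members. The 20 deserts with the most members held 1077 (13.2%) in 8.96% of the eligible sequence. Among the 286 deserts with at least 500 kb of eligible sequence, the number per Mb had a median of 13.6 and quartiles of 7.07 and 24.0.

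The largest group, 77 members, lay between Slc10a2, a bile acid transporter gene, and Efnb2, an ephrin ligand gene of axon guidance and vessels, with medians of 148 and 144 normalised counts per kb in replicates 1 and 2. The desert between Got2, a mitochondrial aminotransferase gene, and the cadherin gene Cdh8 held 69, with medians of 101 and 120. Between Sall1 and Tox3 there were 67 members in 0.904 Mb, 74.1 per Mb, which was the highest number per Mb among deserts of at least 500 kb, and 31 of them were strong, with medians of 196 and 191. The Sox2-Atp11b desert was almost as crowded, with 48 members in 0.653 Mb, 73.5 per Mb, of which 26 (54.2%) were strong, and medians of 188 and 171.

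Several of the other large groups lay beside guidance or adhesion genes. Camk1g-Plxna2, beside the semaphorin receptor gene Plxna2, held 57 members at 68.1 per Mb, and Slc4a3-Epha4, beside an ephrin receptor gene, 49 at 41.7 per Mb. Tenm2-Mat2b, beside a teneurin adhesion gene, held 65, but in 2.67 Mb, which is 24.3 per Mb, with 16.9% strong and medians of 88.0 and 87.5 normalised counts per kb. Sel1l-Flrt2 and Cntnap5b-Cdh20, each with 44 members, were sparser, at 12.9 and 11.6 per Mb. Kcnj2-Sox9 held 56 members at 43.6 per Mb, of which 33.9% were strong. Across the 20 deserts the share of strong members ranged from 13.6% in Sel1l-Flrt2 to 54.2% in Sox2-Atp11b.

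**Figure D2:**
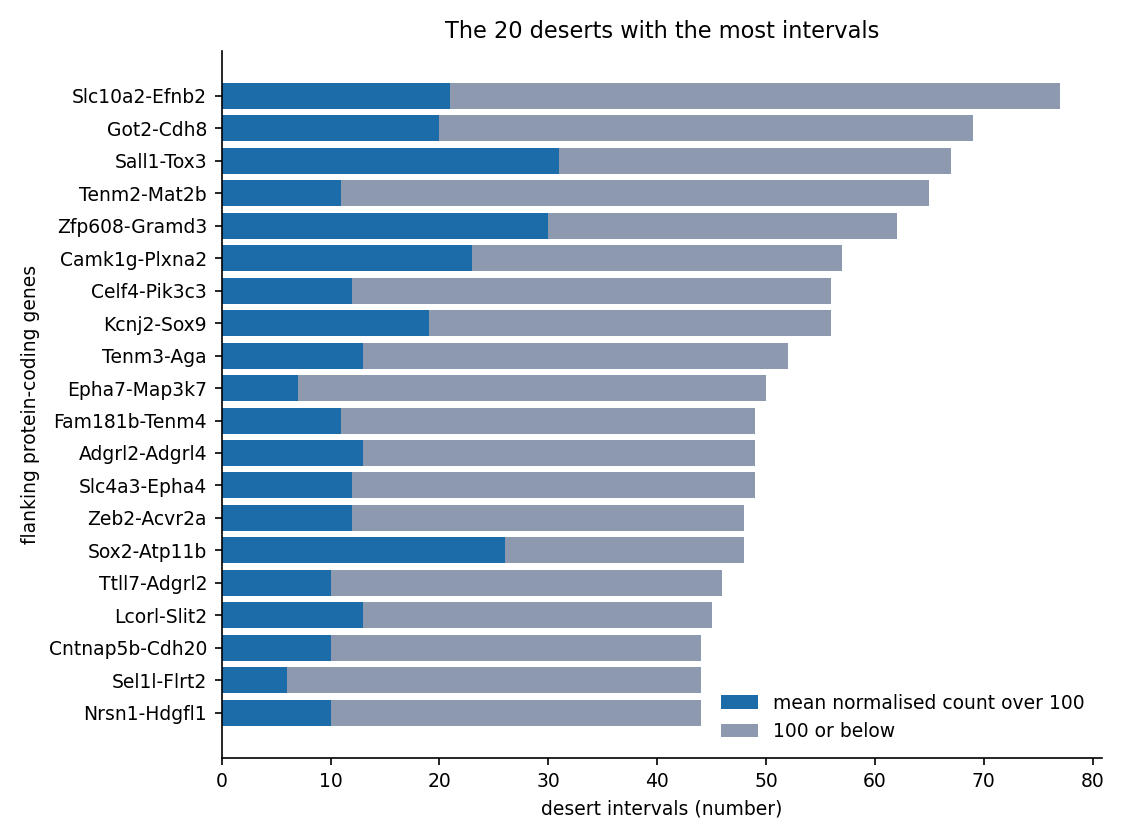
The 20 deserts with the most members, named by their flanking protein-coding genes, with the number of members on the horizontal axis, blue for a mean normalised count over 100 and grey for the others. Slc10a2-Efnb2 has the most members (77), and Sall1-Tox3 (31) the most strong ones, ahead of Zfp608-Gramd3 (30) and Sox2-Atp11b (26).

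Within a desert the members were unequal. In Sall1-Tox3 the 67 members ranged from 51.8 to 2648 normalised counts per kb, 7 exceeding 500, and they spread from 0.201 to 1.09 Mb from Sall1. In Kcnj2-Sox9 4 of 56 exceeded 500, in Sox2-Atp11b 6 of 48 and in Tenm2-Mat2b 4 of 65, and none of the Tenm2-Mat2b members exceeded 1000. The strongest members of these deserts were few beside many weaker ones.

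**Figure D3:**
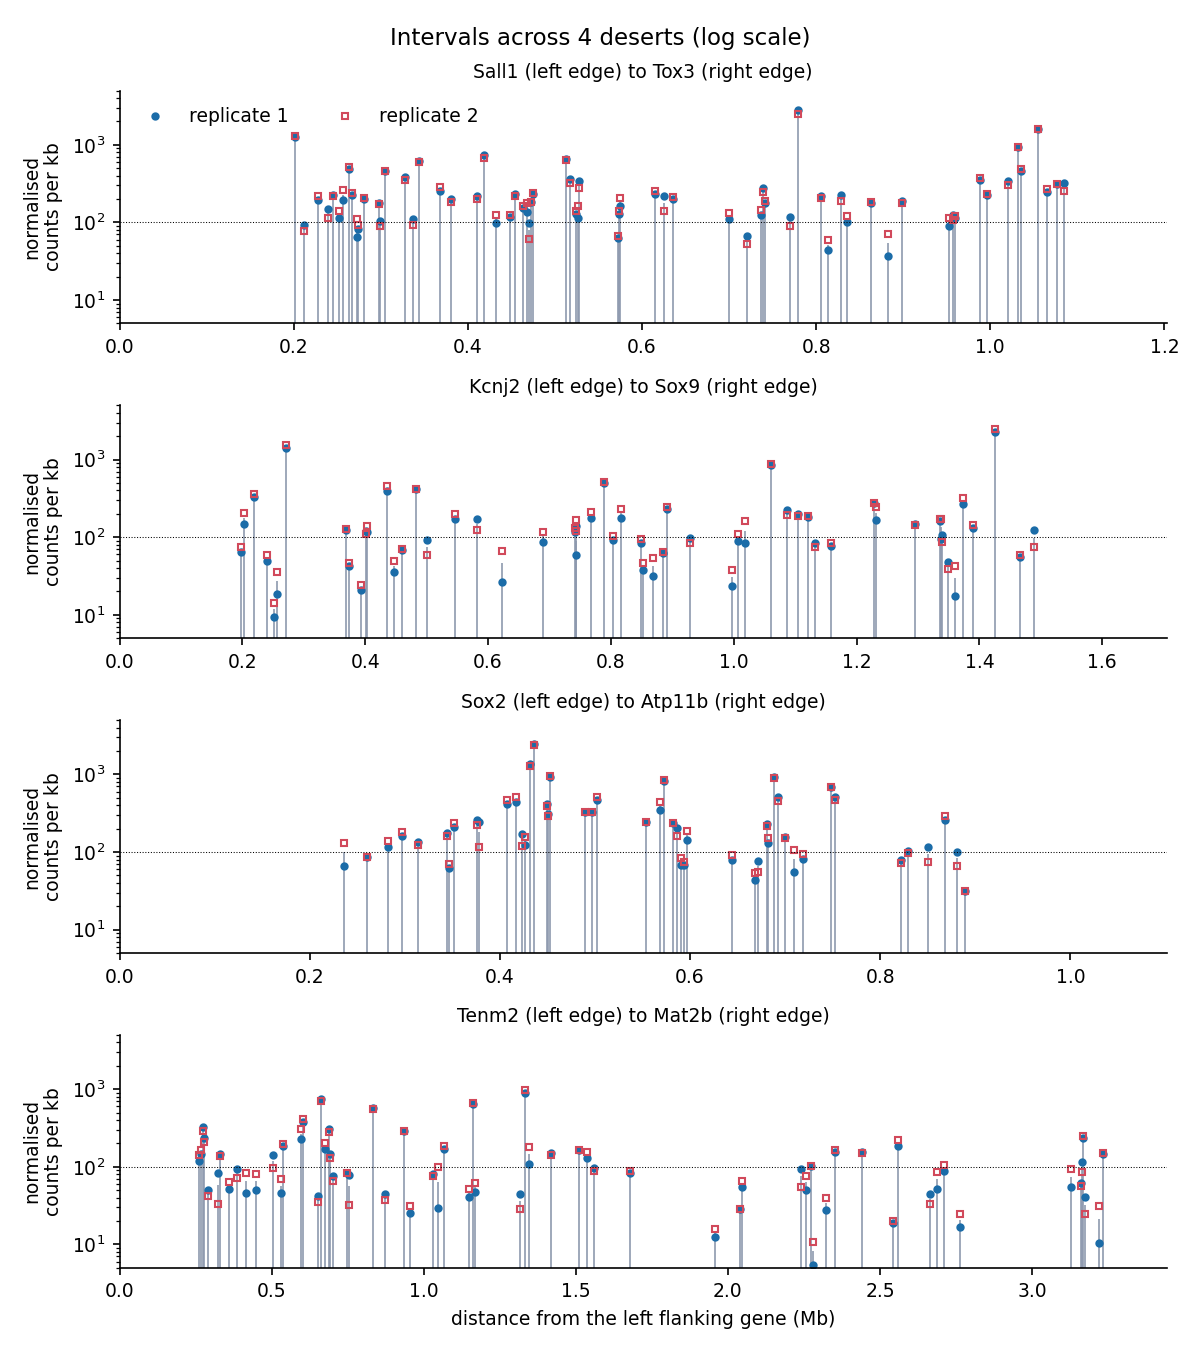
Members across 4 deserts by distance from the left flanking gene (Mb, each panel spanning the gap to the right flanking gene) and normalised counts per kb on a log scale, with replicate 1 as filled circles, replicate 2 as open squares and a dotted line at 100. The highest members of Sall1-Tox3, Kcnj2-Sox9 and Sox2-Atp11b are at 2648, 2352 and 2402, and Tenm2-Mat2b has none above 1000.

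Members were less crowded than other intergenic intervals. The nearest interval of any kind lay at a median of 10.7 kb from a member, against 4.74 kb for the other intergenic intervals, and 48.2% of members had one within 10 kb, against 75.2%. Strong members had a neighbour within 10 kb more often (56.1%) than weaker ones (45.5%). When members no more than 10 kb apart were joined, 3780 (46.4%) fell into 1488 runs of 2 or more. The longest run, 11 members over 53.2 kb, lay between the polarity gene Pard3 and Nrp1, a semaphorin and VEGF co-receptor gene. The next, 10 members over 34.4 kb with 6 of them strong, lay between Prok2 and Rybp. A further 3 runs of 9 members lay in the Tenm3-Aga, Sox2-Atp11b and Sall1-Tox3 deserts.

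The flanking genes were then read against lists of genes by role. Of 93 transcription factor genes of neural tube progenitors and neurons, 48 (51.6%) bordered eligible desert sequence, against 6.90% of all 20780 autosomal protein-coding genes, and 47 of the 48 had a member in the desert beside them, as did 1288 of all 1434 bordering genes. Sox4, with 0.0405 Mb, was the exception. These deserts, 57 in number, held 1007 members at 34.4 per Mb, against 17.8 over all deserts, and 33.6% of the members were strong, against 26.0%. Their median accessibility was 127 and 136 normalised counts per kb, against 113 and 119 for all members. The higher number was present at each distance, with 40.5 per Mb at 200 to 300 kb against 26.0 for all deserts, 37.7 against 20.5 at 300 to 500 kb, and 25.9 against 11.6 beyond 500 kb. Among deserts with at least 500 kb of eligible sequence, 23 of the 24 beside these genes were above the median of 13.6 per Mb.

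Some of the genes that pattern the ventral neural tube were among them. Nkx6-1, a homeodomain gene required for motor neuron progenitors, had 30 members beside it in 0.418 Mb, 71.7 per Mb, of which 14 were strong. The highest of these, 341 kb from the 5′ end of Nkx6-1 on chromosome 5, had 1273 and 1306 normalised counts per kb. Irx3 and Irx5, Iroquois homeobox genes that flank 1 desert of only 0.129 Mb, shared 14 members, 10 of them strong, with a highest member of 1144 and 1129. Olig2 bordered no eligible sequence, whereas the motor neuron gene Isl1 had 27 members, the highest with 609 and 575, and Gli3, a transcription factor gene of Sonic hedgehog signalling, had 8, the highest with 570 and 596.

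Other neural genes with many members were Meis1 (56), a TALE homeobox cofactor gene, the nuclear receptor genes Nr2f2 (45) and Nr2f1 (43), Dach1 (44), Tshz3 (38) and the SOX gene Sox11 (35). The highest members beside Meis1 had 1618 and 1726 normalised counts per kb, beside Nr2f2 1710 and 1753, beside Dach1 1650 and 1591, and beside Nr2f1 1383 and 1461. At the other end, 8 of the 48 genes had fewer than 5 members, among them Pax3 of the dorsal neural tube (4), Meis2 (3) and Foxp1 (1). Some had little eligible sequence, such as Foxp1 with 0.0321 Mb. Per Mb the 8 were at 63.4 (Bcl11b), 53.3 (Lmx1a), 38.5 (Nfia), 31.1 (Foxp1), 25.2 (Ebf2), 15.9 (Pax3), 7.28 (Meis2) and 0 (Sox4). The value over all deserts was 17.8. Over the 47 genes with a member, the highest one beside each gene ranged from 75.3 normalised counts per kb at Ebf2 to 2648 at Sall1, with a median of 630.

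The other lists differed both in the share of genes that bordered deserts and in the number of members per Mb. Of 53 cadherin, protocadherin and synaptic adhesion genes, 44 (83.0%) bordered eligible sequence, with 1121 members in 95.2 Mb, 11.8 per Mb, of which 20.9% were strong. Of 33 axon guidance genes, 18 did, with 555 members at 21.7 per Mb and 25.8% strong. Of 29 autosomal master regulator genes of other tissues, 9 did, with 86 members at 18.9 per Mb, of which 16.3% were strong. Among these was Gata3 with 39 members, 3 of them strong. A role in other tissues, by which this list was made, does not exclude one in the spinal cord. Barhl2 and Emx2, forebrain and midbrain factor genes, had 2 members (13.1 per Mb) and 1 member (16.3 per Mb), both below the 17.8 per Mb of all deserts. Klf4 and Tbx3 were the 2 of 12 pluripotency genes that did, with 21 and 13 members at 26.7 per Mb, of which 17.6% were strong, and the members beside Tbx3 also count among those of the regulators of other tissues. Of the autosomal housekeeping genes, 0 of 11 did. Beyond 500 kb the adhesion gene deserts held 9.79 members per Mb, those of regulators of other tissues 13.7, the axon guidance deserts 17.1, the neural transcription factor deserts 25.9 and all deserts 11.6. The pluripotency gene deserts held 39.3 there, from 8 members in 0.203 Mb.

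Start sites of the flanking genes were compared next. Of the 1434 protein-coding genes that bordered eligible sequence, 79.5% had an interval over a start site, against 69.5% of all. Among genes beside at least 500 kb of it, the share was 73.6% (95% Wilson interval 60.4 to 83.6) at up to 5 members per Mb, 71.7% (63.3 to 78.8) at 5 to 10, 84.0% (75.3 to 90.1) at 10 to 15 and 85.2% (80.5 to 88.9) above 15 members per Mb. The median start-site accessibility of these 4 classes was 423 ± 7.99, 430 ± 3.06, 571 ± 10.4 and 702 ± 10.9 normalised counts per kb (SD, n = 2), with genes lacking a start-site interval counted as 0. Adjacent deserts share flanking genes, and genes are not replicates, so this is a description across genes.

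The replicates gave similar values over the members. The squared correlation of log2(normalised count + 1) was 0.943 across the 8140 members and 0.975 across the 2118 strong ones, against 0.948 and 0.978 for the other intergenic intervals and 0.992 over start sites. These are across intervals of 1 pair of libraries, and intervals are not independent replicates. An exact two-sided binomial test of each interval between the libraries, with Benjamini-Hochberg adjustment over all 119502, called 0 members at an adjusted p under 0.01, where 0% of all intervals were called, and 0 with edgeR TMM or total-count scaling. At an unadjusted p under 0.05 there were 623 members (7.65%), against 8.39% of all intervals. None of the strong members was over 2-fold apart, and 0% of all strong intervals were.

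A small shift between the libraries did run through the deserts. Of the 8140 members, 4696 (57.7%) had the higher normalised count in replicate 2, against 50.0% of all autosomal intervals. The median log2 difference of replicate 2 from replicate 1 was 0.06 for members, 0.03 over gene bodies, 0.01 for other intergenic intervals and −0.03 over start sites. Replicate 2 was higher in 31733 of 60222 gene-body intervals and in 5388 of 15727 over start sites, so the shift was not confined to deserts. The largest difference among strong members was at chr14:80492228-80493160 between Olfm4 and Pcdh17, with 124 fragments in replicate 1 and 194 in replicate 2 (1.56-fold, adjusted p = 0.138 in the exact binomial test). The smallest adjusted p, 0.0178, belonged to the Sall1-Tox3 member with 3318 and 2936 fragments. Neither passed the threshold, and the test compares 2 libraries, not conditions.

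**Figure D4:**
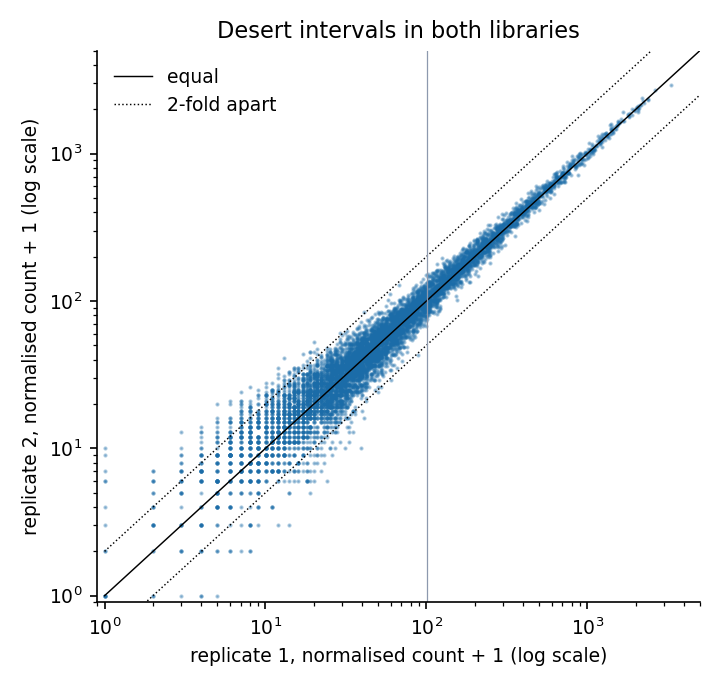
Normalised counts plus 1 of the 8140 members in replicate 1 (horizontal) and replicate 2 (vertical), both on log scales, with lines for equal counts and for 2-fold differences and a grey line at a normalised count of 100. All 2118 strong members lie between the 2-fold lines, and the points spread beyond them only at low counts.

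The base composition of the members lay between that of start sites and that of the desert around them. The median G+C content was 44.2% in members, 48.5% in other intergenic intervals and 59.5% over start sites, and it was 38.3% in 1505297 windows of 300 bp of eligible desert sequence outside intervals. In 5 equal classes of members ordered by accessibility it was 42.6% in the lowest and 44.7% in the highest. CpG-rich sequence, with at least 50% G+C and an observed to expected CpG ratio of at least 0.6, was found in 39 members (0.479%), against 60.7% of start-site intervals, and in 0 of the 100 most accessible members. The median share of repeat-masked bases was 9.33% in members and 28.7% in the windows outside intervals.

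Motifs of transcription factor families were searched in the central 300 bp of every interval, on both strands. In intervals shorter than this the window also takes in flanking sequence. ACAATG, bound by SOX factors such as the neural progenitor factor SOX2, was in 32.6% of members, against 23.5% of other intergenic intervals, 21.3% of all autosomal intervals, 6.73% of start-site intervals and 20.7% of the desert windows outside intervals. The neural E-box CAGATG was in 30.9%, against 28.9%, 27.0%, 12.1% and 20.7%. It was less frequent in strong members (24.8%) than in weaker ones (33.1%). TAATTA, a palindrome read by many homeodomain proteins, was in 11.9% of members and 7.85% of other intergenic intervals, but in 13.5% of the desert windows outside intervals. ATGCAAAT was in 3.66%, 2.28% and 3.48% of the same sets, TGTTTAC in 5.47%, 4.72% and 4.83%, and TTGGCA in 16.7%, 15.8% and 14.1%.

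GACCACCCA, the site of the GLI factors that carry the Sonic hedgehog signal, was rare, in 46 members (0.565%), against 0.513% of other intergenic intervals, 0.478% of all autosomal intervals and 0.146% of the windows outside. These 46 had a median of 186 and 189 normalised counts per kb in replicates 1 and 2, against 113 and 119 for the other members. The ratio was 1.62 ± 0.0351 (SD, n = 2), where the SD covers the 2 libraries and not the small number of intervals. Of the 46, 16 were strong (34.8%, against 26.0% of members without the motif). Members with the CTCF motif, taken up next, also had a ratio above 1, 1.36 ± 0.0496, but fewer of them were strong (18.0%, against 26.1%). Members with CAGATG (0.837) or TAATTA (0.852) had ratios below 1.

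Of the 8 motifs searched, the one with the largest ratio between deserts and other intergenic intervals was that of CTCF, the zinc finger protein that anchors chromatin loops and domain borders. It was in 89 members (1.09%), 4.93% of other intergenic intervals, 3.50% of all autosomal intervals, 1.43% of start-site intervals and 0.0818% of the desert windows outside intervals. Among strong intervals the shares were 0.755% in deserts and 5.67% in the other intergenic intervals. Its share was 6.76% within 20 kb of a start site, 2.34% at 100 to 200 kb, 1.55% at 200 to 300 kb, 0.709% at 300 to 500 kb and 0.912% beyond 1000 kb, while ACAATG was in 20.1% of the nearest and 35.9% of the farthest class. The median G+C content moved along the same series, from 49.7% to 41.4%, and its part in these shares was not tested beyond the classes of equal G+C that follow. Within intervals of 45 to 50% G+C, CTCF was in 1.48% of members and 4.78% of other intergenic intervals, and ACAATG in 27.9% and 24.4%. No test was made of these shares, since neighbouring windows are not independent.

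**Figure D5:**
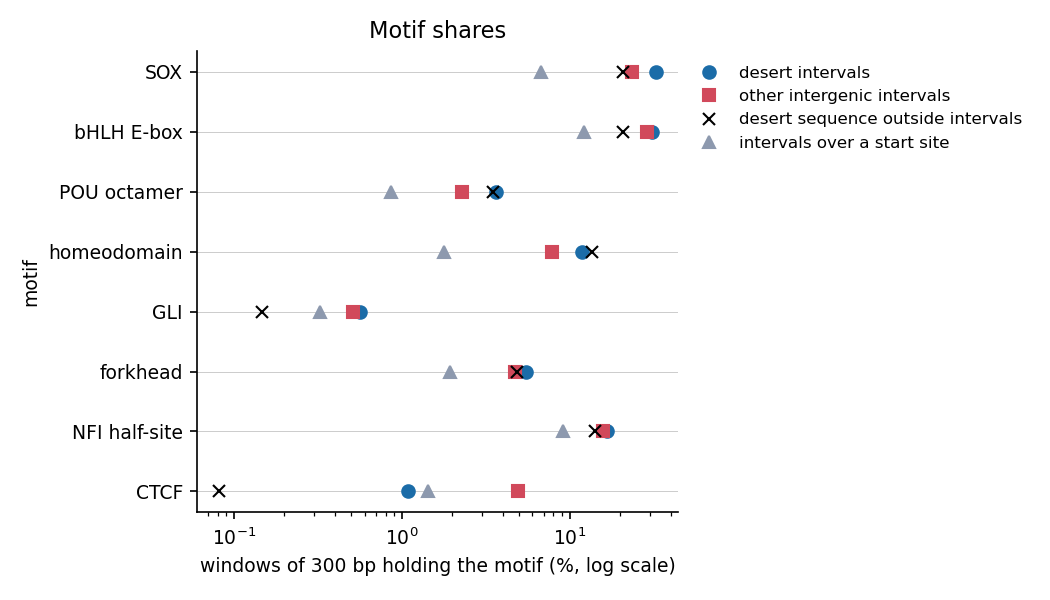
Percentage of 300 bp windows that hold each motif on either strand, on a log scale, for desert members (circles), other intergenic intervals (squares), desert sequence outside intervals (crosses) and intervals over a start site (triangles). SOX is at 32.6% in members and 23.5% in other intergenic intervals, and CTCF at 1.09% and 4.93%.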

How the data were processed

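ATAC-seq was performed on 2 libraries of sorted Olig2-2A-mKate2 cells, the 1 group given by the labels. The deposited values are raw counts of fragments in each consensus interval, made by featureCounts 2.0.1 on read pairs (file header), with a fragment counted in every interval it overlapped by a fraction of at least 0.2. Per the study's methods, reads were processed with nf-core/atacseq 1.2.0 on mm10, with MACS peaks at an FDR of 1e-05 and a consensus of at least 2 replicates. A fragment can thus count in more than 1 interval, and closed sequence has no row. The intervals were defined over 5 libraries. The other 3 columns are no samples of the series and were not used.

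Size factors from DESeq2 1.42.0 and interval length in kb were used to scale the counts. Gene records and transcript starts were those of GENCODE vM21 on GRCm38 (mm10), and distance ran from the nearest edge of an interval. Flanking genes were the nearest protein-coding gene bodies. Eligible sequence left out unknown bases. Sequence came from RefSeq GRCm38.p6, and repeated copies were sought with BLAST+ 2.17.0. Libraries were compared interval by interval with an exact binomial test (scipy 1.17.1), which was tested on simulated data. The test covers counting error only, since fragments carried no molecular identifiers. Named were the 20 deserts with the most members, the 10 most accessible, the 5 farthest and the 5 with the largest library difference, listed genes beside a member and the longest deserts without one. The spread of the 2 libraries is given as the SD. Members and lists were chosen with earlier results of these data known. A flanking gene and the sums of its list are not reported here. Alternatives varied the distance, start-site and overlap rules, normalisation with edgeR 4.0.16, count filter, density unit, pseudocount, window and replicates.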

Additional observations from a re-analysis of the deposited data

How the results depend on the processing

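Of 194 values recomputed under alternatives, 153 were counted as close to those reported and 41 as moved. The 153 include accessibility ratios under another scaling, which cannot change. They also include accessibility medians and ratios from a single replicate, which lie within the SD of the 2 libraries by construction. The count of 153 is therefore no measure of how stable the results are. The desert to intergenic accessibility ratio was below 1 in the 10 alternatives that can change it (another scaling of a library cannot). Those that leave out a replicate only repeat the ratio of the other library, given above. Moving the distance to 100 kb or 500 kb changes the members by construction. It gave 13898 or 2411 members, of which 27.4% or 21.2% were strong, 54.3% or 38.4% had a neighbour within 10 kb, and the median G+C was 45.2% or 42.6%. CTCF was in 1.61% at 100 kb. At 500 kb there were 11.6 members per Mb, a median of 106 normalised counts per kb, a ratio of 0.823 to other intergenic intervals, a squared replicate correlation of 0.932 and 22 neural transcription factor genes with a member. A filter on a mean of at least 10 gave 123 (ratio 0.916), and counts per interval gave 44.0 (ratio 0.772), where length enters. A pseudocount of 10 gave a squared correlation of 0.964. Neighbours within 10 kb were 50.1% with gene-record start sites and 49.6% with only protein-coding genes barred, and 86.7% had one within 50 kb. In 200 bp windows CTCF was in 0.651%. Without replicate 1 or 2, the median ranged from 113 to 119, the ratio from 0.877 to 0.909 and the strong share from 25.7% to 26.4%. The number per Mb beside neural transcription factors stayed 1.69 to 2.24 times that of all deserts, in alternatives chosen after seeing the data, as were leaving out chromosome 8 or members over RefSeq genes. Members with low counts limit single comparisons. No paired analysis was possible because the series has only 1 group.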

Other observations

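Of the 826 deserts, 93 held no member. They were small, with a median of 32.8 kb of eligible sequence against 357 kb for the others, and together covered 7.88 Mb. Of the 286 with at least 500 kb of eligible sequence, 3 held none, Bche-Zbbx (1.02 Mb), Gm12887-9530002B09Rik (0.622 Mb) and 9130204L05Rik-Pglyrp3 (0.524 Mb). Bche encodes butyrylcholinesterase and Pglyrp3 a peptidoglycan recognition protein. Of the 6 genes beside these 3 deserts, 2 had an interval over a start site.

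On the X chromosome, which the rule leaves out, 198 intervals met its other conditions. They had medians of 111 and 113 normalised counts per kb in replicates 1 and 2, and 26.3% were strong. The most, 27, lay between Diaph2, a formin gene, and the protocadherin gene Pcdh19, with a highest value of 629 normalised counts per kb, and 25 lay between H2al1j and Bcor.

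Members were not all free of other annotation. RefSeq placed a gene over 888 of them (10.9%), a protein-coding one over 78, and the median distance to a GENCODE gene of any type was 43.6 kb. Members over a RefSeq gene had medians of 120 and 124 normalised counts per kb, and the others 113 and 118. The 39 CpG-rich members had medians of 93.8 and 99.6, and 25.6% of them were strong, against 26.0% of the other members.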
